A study of Mus musculus with 3 samples.

Results

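Endothelial cells were a minor by-catch in a sort of fluorescent cells from mouse atria, and 82 barcodes carried their genes. The study isolated intrinsic cardiac neurons, the autonomic neurons that lie in ganglia on the atria, with the genotype Baf53b-cre;lox-GFP. Cre under the neuronal gene Baf53b (Actl6b) turns on GFP in these mice. The mixed library pooled ganglia of mice labelled 2 months old, the anterior library came from anterior ganglia of mice labelled 3 months old and the posterior library from posterior ganglia of mice labelled 4 months old, each of both sexes and all of the same genotype, with no other treatment named. Each is 1 library of pooled animals made with the 10x Chromium Single Cell 3′ V3 kit, so region cannot be told apart from library or from labelled age. All samples are labelled neuron, and the sort was for fluorescence, so shares of endothelial cells describe what passed the sort and not the tissue.

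The members were chosen by their own RNA. A barcode needed at least 1000 unique molecular identifiers (UMIs, each a counted RNA molecule), at least 500 genes, at most 20% mitochondrial UMIs, fewer than 20 UMIs per 10000 of Snap25, Prph and Stmn2 together (the neuron limit), and at least 1 UMI of at least 3 of the 7 gate genes Pecam1, Cdh5, Kdr, Cldn5, Egfl7, Tie1 and Emcn. Of 8361 barcodes, 7091 passed the depth limits and 1558 also the neuron limit. The gate took 82 of these 1558 (5.26%): 22 of 393 in the mixed library (5.60%, exact Clopper-Pearson 95% interval 3.54 to 8.35), 31 of 431 in the anterior (7.19%, 4.94 to 10.1) and 29 of 734 in the posterior library (3.95%, 2.66 to 5.63). The intervals overlapped, and they cover counting error only. The members held 376094 UMIs in all, with median depths of 3249.5, 3092 and 4378 UMIs, against 4664, 3384 and 5638 in the 1476 other barcodes within the same limits.

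Endothelial cells line the inner face of all blood and lymphatic vessels and, as the endocardium, of the heart chambers. They hold the vessel wall closed through cell junctions, pass nutrients from blood to tissue, set vessel tone through nitric oxide and endothelin, and present a surface that limits clotting and captures leukocytes when activated. VEGF acts on them through the receptors Flt1, Kdr and Flt4, angiopoietins through Tek, and ETS and SoxF transcription factors maintain their gene programme. Capillaries of the heart import fatty acids from lipoproteins, the main fuel of cardiac muscle.

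The stretches just upstream of the transcription starts of endothelial genes are shown because members of the ETS family (Erg, Fli1 and Ets1, all measured below) bind sites with a GGAA core. In the RefSeq table on GRCm38.p6, 5 of the 7 gate genes had an entry, with 7 starts. The 250 bases before the start are printed 5′ to 3′ on the gene's strand, with each match to CAGGAA or its reverse complement TTCCTG in capitals. Tie1, the orphan receptor that partners Tek, lies at chr4:118489850-118490099 on the minus strand with 1 match. Emcn, the surface sialomucin endomucin, lies at chr3:137340828-137341077 on the plus strand with 2. Robo4, an endothelial guidance receptor that was no gate gene, lies at chr9:37401722-37401971 on the plus strand with 1. Cldn5, the endothelial tight junction claudin, lies at chr16:18776597-18776846 on the plus strand with 0, and is shown as a gate gene start without the motif, as were those of Kdr and 1 of the 3 of Egfl7.
Tie1: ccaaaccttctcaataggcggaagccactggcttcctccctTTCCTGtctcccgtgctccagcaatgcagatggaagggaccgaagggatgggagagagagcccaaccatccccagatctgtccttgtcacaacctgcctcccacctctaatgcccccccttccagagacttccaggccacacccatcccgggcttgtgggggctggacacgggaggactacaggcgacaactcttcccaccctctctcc
Emcn: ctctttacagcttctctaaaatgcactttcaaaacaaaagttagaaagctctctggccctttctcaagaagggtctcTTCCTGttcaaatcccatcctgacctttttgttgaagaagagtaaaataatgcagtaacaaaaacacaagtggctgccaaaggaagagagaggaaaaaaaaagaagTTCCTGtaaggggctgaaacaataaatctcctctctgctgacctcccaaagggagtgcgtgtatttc
Robo4: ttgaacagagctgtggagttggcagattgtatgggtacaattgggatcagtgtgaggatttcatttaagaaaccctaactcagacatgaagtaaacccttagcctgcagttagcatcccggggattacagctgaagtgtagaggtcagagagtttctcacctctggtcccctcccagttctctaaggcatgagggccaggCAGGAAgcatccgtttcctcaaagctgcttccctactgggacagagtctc
Cldn5: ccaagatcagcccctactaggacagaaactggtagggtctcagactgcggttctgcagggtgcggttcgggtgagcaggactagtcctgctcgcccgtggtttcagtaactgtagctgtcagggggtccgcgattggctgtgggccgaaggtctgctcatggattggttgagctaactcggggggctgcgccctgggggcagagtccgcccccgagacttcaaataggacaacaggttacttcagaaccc
Searched on both strands, CAGGAA was in 4 of the 7 gate gene starts (57.1%), in 10 of 15 starts of a list of 24 endothelial identity genes of which 14 had an entry (66.7%), and in 25.7% of all 32851 starts of the table. The shorter GGAAG was in 71.4%, 93.3% and 64.1% of the same sets, and AACAGGAA, which contains CAGGAA, in 28.6%, 6.67% and 2.25%. The SOX-type motif ACAATG was in 0%, 6.67% and 10.7%, the GATA-type motif AGATAA in 0%, 6.67% and 9.99%, and the KLF-type motif CACCC in 57.1%, 66.7% and 52%. These are matches of letters and not measured binding.

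The gate genes themselves describe the members and are not tested, since they chose them. Levels are given as CPM, UMIs of a gene per 1000000 UMIs of the summed barcodes, in the order mixed, anterior and posterior. Pecam1, the adhesion molecule CD31, was at 831, 879 and 1080 CPM, with a UMI in 18, 25 and 26 members, against 18.6, 8.07 and 8.17 CPM in the other barcodes. Cdh5, the cadherin of endothelial adherens junctions, was at 598, 838 and 853 CPM against 5.84, 5.38 and 1.07 CPM. Both were present in most members of each library.

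Egfl7, a secreted endothelial factor, was at 1385, 903 and 884 CPM in the members and 7.96, 8.75 and 9.89 CPM in the others. Emcn was at 898, 805 and 485 CPM against 0.531, 0.673 and 0.215 CPM. Kdr, the main VEGF receptor, was at 410.1, 550.2 and 632 CPM against 21.2, 6.73 and 4.30 CPM, and Tie1 at 188, 255 and 252 CPM against 0, 0 and 0.215 CPM, where 1 UMI was counted in all. Cldn5 was at 665, 731 and 1172 CPM in the members, in 9, 17 and 19 of them, and at 63.2, 28.3 and 45.8 CPM in the others. Of the 1558 barcodes, 1295 had a UMI of no gate gene, 147 of 1, 34 of 2, 11 of 3, 13 of 4, 21 of 5, 18 of 6 and 19 of all 7. The 34 just outside the gate fell 13, 6 and 15 to the libraries, and the 11 just inside 3, 5 and 3.

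**Figure D1:**
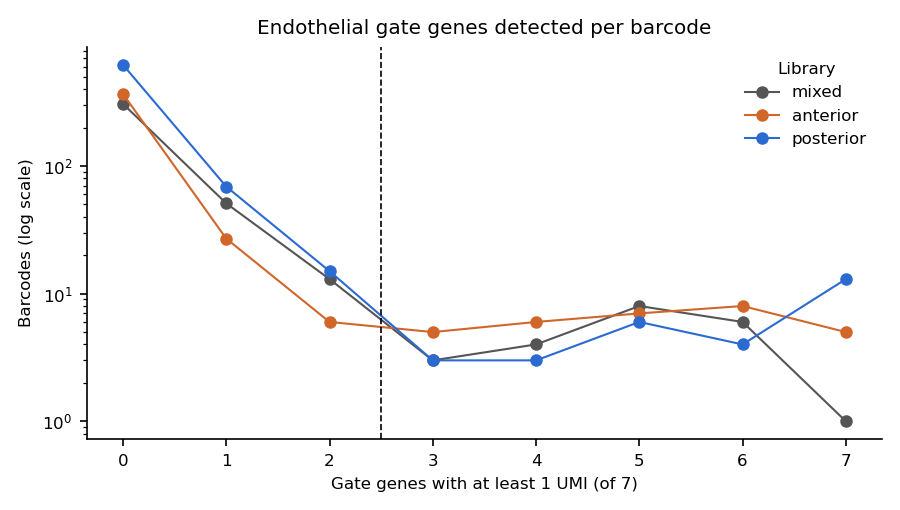
Number of barcodes within the depth and neuron limits (y axis, log scale) by how many of the 7 gate genes had at least 1 UMI (x axis), with 1 line per library and a dashed line at the gate. The numbers drop from 0 to 2 genes, stay between 3 and 8 per library from 3 to 6 genes, and reach 13 posterior, 5 anterior and 1 mixed barcodes with all 7.

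The endothelial label was in doubt for at least 4 of the 82. These 4 (1 mixed, 2 anterior, 1 posterior) carried 94, 54, 41 and 296 UMIs of Chgb and 27, 19, 20 and 74 of Chga, granins of neuroendocrine secretory granules. They also carried 5, 7, 14 and 18 UMIs of Th, the first enzyme of catecholamine synthesis, and 92, 114, 54 and 163 of the pericyte gene Rgs5. They passed with Cldn5, Egfl7 and a single Kdr UMI each and had 0 UMIs of Pecam1, Cdh5, Tie1 and Emcn. One anterior member with 6 gate genes held 2472 haemoglobin UMIs, 36.98% of its RNA. No other member held more than 1 Chgb UMI. Several results that rest on these 5 are given with and without them, an alternative chosen after the data had been seen. Other values, among them the gate gene levels and the members meeting each marker list, keep all 82. For Cldn5, the posterior member of the 4 held 37 of 191 posterior UMIs. A further check, also without a doublet caller, left out the 9 members (3, 5 and 1) that passed the gate of another cell type too. The members shared no barcode sequence across libraries, although 2, 3 and 3 barcodes of the library pairs were shared in all.

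Against the other barcodes, the members were set apart by genes of the vessel lining, with lipid uptake genes of capillaries among the largest differences, and they held less RNA of fibroblast, glial, macrophage and lymphocyte markers. UMI counts were summed over members and over other barcodes in each library and compared with edgeR's quasi-likelihood test, with the library as a block. Of 9035 genes tested, 561 were higher in the members (6.21%) and 802 lower (8.88%) at an adjusted p under 0.05, and the median log2 difference over all genes was -0.09. The gate genes were left out of the tests. The other genes were measured in the same barcodes, so their calls describe the barcodes that the gate took, and the p-values measure the spread between 3 libraries. Genes nearly absent from the other barcodes passed the filter on low counts through the members and could only come out higher. This favours the numbers of higher genes in the identity, capillary and transcription factor lists among others. The number called in any list is to be read beside the shares over all genes.

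All 24 genes of the endothelial identity list, none of them a gate gene, were higher, with a median log2 difference of 5.87 against -0.09 over all genes. Several of them, such as Adgrl4 and Mmrn2, had few UMIs in the other barcodes and passed the filter through the members. The number therefore supports nothing by itself. Their summed level was 7758, 8712 and 7667 CPM in the members and 409, 386 and 394 CPM in the others. Ptprb, the phosphatase VE-PTP that acts on Tek and Cdh5, was at 410.1, 764 and 767 CPM in the members and 2.65, 2.69 and 5.59 CPM in the others (log2 difference 7.22, SE 0.36, edgeR adjusted p 2.76e-09). Flt1, the decoy VEGF receptor 1, was at 310.3, 796 and 368 CPM against 5.84, 2.69 and 3.65 CPM (log2 difference 6.59, SE 0.40, edgeR adjusted p 1.59e-08). Tek, the angiopoietin receptor, was at 277, 255 and 184 CPM against 6.37, 11.4 and 11.8 CPM (log2 difference 4.37, SE 0.33, edgeR adjusted p 1.6e-07). In each of these 3 genes every library's level in the members exceeded every library's level in the others.

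Adgrl4, an adhesion receptor of sprouting vessels, had 134 UMIs in the members and 1 in the others, a pooled ratio of 2867 (exact conditional 95% interval 506 to 1.14e+05). Mmrn2, a matrix protein that binds Cd93 and Clec14a, had 116 against 3 (827, 276 to 4069). Myct1 had 71 and Sox17, an arterial SoxF factor, 59, with 0 in the others. These are at least 506-fold and at least 421-fold higher against a floor of 3 counts over the group. Ctla2a, which overlaps in sequence with its copy Ctla2b so that its count is uncertain, was at 1352, 1511 and 2247 CPM against 4.25, 10.1 and 18.7 CPM, and Cd300lg, a lymphocyte-binding mucin-like receptor, had a log2 difference of 6.68. The remaining genes among the 15 highest by the naming rule were C1qtnf9, Cyyr1, She, Sox18 and Robo4, and each had at most 2 UMIs in all the other barcodes. Cd34 was the lowest of the identity list (log2 difference 1.04, edgeR adjusted p 0.012) with 139.6, 137 and 175 CPM in the others, and its adjusted p was 0.09 without the mixed library (0.00495 to 0.13 over 11 alternatives).

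**Figure D2:**
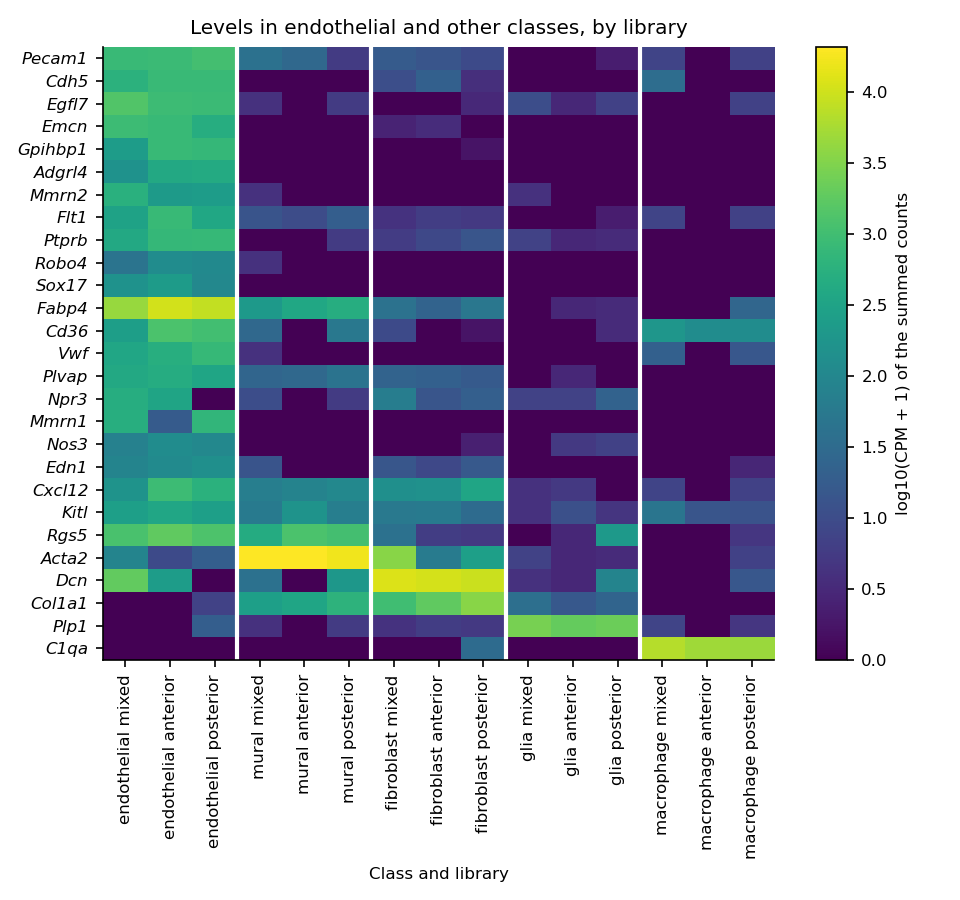
Levels of named genes (rows) as log10(CPM + 1) of the summed counts (colour) in the endothelial members and in the mural, fibroblast, glial and macrophage barcodes of each library (columns). Gpihbp1 lies between 244 and 821 CPM in the members and near 0 elsewhere, while Npr3 is dark in the posterior members, where it had 0 UMIs.

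The capillary list was led by lipid uptake genes. Gpihbp1 (chromosome 15, 75596628 to 75599481), which holds lipoprotein lipase on the capillary wall, was at 244, 821 and 749 CPM in 7, 21 and 18 members and at 0, 0 and 0.215 CPM in the others, 244 UMIs against 1 (ratio 5220, 928 to 2.07e+05; edgeR adjusted p 6.9e-10). Fabp4, a fatty acid carrier, was at 4400, 10680 and 8403 CPM against 64.2, 37.7 and 191 CPM (log2 difference 6.35, SE 0.54, edgeR adjusted p 5.54e-07). Cd36, the fatty acid translocase, was at 266, 1223 and 1007 CPM against 28.1, 37.7 and 32.0 CPM (log2 difference 4.36, SE 0.37, edgeR adjusted p 6.19e-07). Each of these 3 genes was lowest in the members of the mixed library, whose levels still lay above those of the others. Btnl9 had 50 UMIs against 0, at least 357-fold higher. Of 13 listed capillary genes 11 were tested and 9 were higher, with a median log2 difference of 4.36. Rgcc (adjusted p 0.104) and Sparcl1 (0.796) were not called in edgeR, and Rgcc was called without the mixed library (0.00143; 3.36e-05 to 0.587 over 11 alternatives). The fatty acid list (12 of 15 tested) had 7 higher and 1 lower, Slc27a1, a fatty acid transporter listed at 0 UMIs in the posterior members (log2 difference -3.59). Lpl itself was at 166, 238 and 252 CPM against 78.6, 207 and 117 CPM and was not called (adjusted p 0.162).

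Of 18 tested transcription factors (22 listed) 12 were higher and 0 lower, among them Erg, Fli1, Ets1 and Ets2 of the ETS family, Sox7, Sox17 and Sox18 of the SoxF family, and Gata2 (median log2 difference 2.59). Erg was at 55.4, 65.7 and 123 CPM against 2.12, 1.35 and 1.5 CPM (log2 difference 5.53, SE 0.59, edgeR adjusted p 5.11e-06), and Fli1 at 122, 156 and 147 CPM against 15.9, 11.4 and 17.4 CPM (log2 difference 3.09). Ets1 had a log2 difference of 2.90, Gata2 of 4.14 and Epas1, the hypoxia factor HIF2A, of 1.90. Sox18 had 54 UMIs against 2. The shear stress factors Klf2 (876, 2127 and 982 CPM against 613, 591 and 559 CPM) and Klf4 were not called (adjusted p 0.0663 and 0.401), nor was the venous factor Nr2f2 (0.594). Klf2 was called without the 5 odd members (0.0336) and in barcodes thinned to 1000 UMIs (0.0037; 0.0037 to 0.363 over 11 alternatives).

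Junction genes were higher as a group, 13 of 15 tested (of 17 listed), with 0 lower and a median log2 difference of 2.37. Esam, an immunoglobulin-type adhesion molecule, was at 288, 419 and 332 CPM against 43.0, 7.40 and 8.17 CPM (log2 difference 4.38, SE 0.46, edgeR adjusted p 4.66e-06), and F11r, the junctional adhesion molecule JAM-A, at 222, 181 and 307 CPM against 26.5, 20.2 and 24.7 CPM (log2 difference 3.17). The scaffold Tjp1 (ZO-1) had a log2 difference of 2.05 and plakoglobin (Jup) of 2.52. Jam3 (-0.82, adjusted p 0.229) and alpha-catenin Ctnna1 (0.55, 0.239) were not called, and occludin (Ocln) was counted in 1 member. Caveolae, the flask-shaped membrane pits abundant in endothelium, had all 9 listed genes tested, with 7 higher and a median of 1.86. Cavin2 was at 1175, 961 and 1314 CPM against 68.0, 45.8 and 42.1 CPM (log2 difference 4.35, SE 0.31, edgeR adjusted p 6.54e-08) and Cav1, the main coat protein, at 809, 772 and 1320 CPM against 161, 82.1 and 73.3 CPM (log2 difference 3.12). Plvap, which forms the diaphragms of fenestrae and caveolae, was at 410.1, 468 and 344 CPM in 11, 10 and 10 members against 13.8, 12.1 and 6.67 CPM (log2 difference 5.14, SE 0.30, edgeR adjusted p 8.87e-09).

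Receptors of the VEGF and angiopoietin systems were higher, and their ligands were not. Of 13 listed genes 12 were tested, 6 were higher, 1 lower, and the median was 1.89. Besides Flt1, Tek and Ptprb, the co-receptors Nrp1 (388, 583 and 424 CPM against 41.4, 47.8 and 52.2 CPM; log2 difference 3.13) and Nrp2 (2.38) and the lymphatic receptor Flt4 (7.95) were higher. Vegfa, made by the cells around vessels, was at 22.2, 57.5 and 36.8 CPM in 2 members of each library and at 43.0, 62.6 and 65.2 CPM in the others (adjusted p 0.322). Vegfd had 0 UMIs in the members and was at least 2.70-fold lower, a call lost without the anterior (0.0574) or the posterior library (0.123; 0.00546 to 0.123 over 10 alternatives). Angpt2, the destabilising Tek ligand, was at 66.5, 8.21 and 49.1 CPM against 31.3, 47.1 and 26.2 CPM (0.932), and in the members 1 UMI of Angpt1 was counted.

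Notch genes of the endothelium moved in both directions. The ligand Dll4 was at 88.7, 148 and 85.9 CPM against 0, 0 and 4.73 CPM (log2 difference 5.48, SE 0.73, edgeR adjusted p 4.98e-05) and the endothelial receptor Notch4 at 22.2, 65.7 and 79.8 CPM against 1.06, 1.35 and 0.860 CPM (log2 difference 5.60). Hey1, a Notch target, was higher (2.34), while the targets Hey2 (-3.06) and Heyl (-4.04) were lower, each counted in 1 member. Of 12 tested Notch genes (13 listed) 5 were higher and 2 lower (median 0.79).

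Among 16 tested genes of BMP and TGF-beta signalling (17 listed) 10 were higher and 1 lower (median 1.32). The co-receptor Eng was at 1108, 1141 and 528 CPM against 21.8, 31.6 and 25.8 CPM (log2 difference 4.90, SE 0.33, edgeR adjusted p 4.46e-08), the ligand Bmp6 had a log2 difference of 3.98 and Bmp4 of 3.39, and the target Id1 was at 321, 928 and 595 CPM against 236, 84.8 and 63.6 CPM (2.34). Id2 (-0.73, adjusted p 0.171) was not called. The 1 lower gene, the receptor Bmpr1a (-1.72, 0.026), lost its call in 5 of 11 alternatives, among them those without the anterior (0.128) or the posterior library (0.111; 0.00266 to 0.501 over 11 alternatives).

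Of 17 tested genes that set vessel tone (20 listed) 9 were higher and 2 lower, with a median of 2.00. Nos3, the endothelial nitric oxide synthase, was at 77.6, 123 and 104 CPM in 6, 10 and 9 members against 2.12, 3.36 and 4.09 CPM (log2 difference 4.75, SE 0.48, edgeR adjusted p 3.19e-06). Edn1, the constrictor endothelin 1, was at 88.7, 115 and 141 CPM in 2, 4 and 6 members against 6.37, 2.02 and 5.38 CPM (log2 difference 4.49, SE 0.45, edgeR adjusted p 3.24e-06), and Ece1, which activates it, had a log2 difference of 2.82. Aplnr, the apelin receptor, had 29 UMIs in the members and 1 in the others. The natriuretic peptide receptor Npr1 (1.88) and Ptgs1 (cyclooxygenase 1, 2.35) were higher. Prostacyclin synthase Ptgis (55.4, 16.4 and 24.6 CPM against 426, 189.8 and 191 CPM; -3.24) and the inducible Ptgs2 (-3.07) were lower.

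The blood-facing surface showed anticoagulant and leukocyte-binding genes. Vwf, the platelet-binding factor stored in endothelial granules, was at 355, 517 and 779.6 CPM in 10, 13 and 9 members against 3.72, 0.673 and 16.1 CPM (log2 difference 6.28, SE 0.45, edgeR adjusted p 8.52e-08). Thrombomodulin (Thbd) was at 166, 181 and 215 CPM against 23.9, 29.6 and 38.3 CPM (log2 difference 2.46) and the protein C receptor Procr had 3.17. Tissue factor (F3), which starts clotting, had 0 UMIs in the members and was at least 10.2-fold lower. Of 11 tested coagulation genes (15 listed) 6 were higher and 2 lower (median 1.19), with 3 higher without the anterior library. Of 13 tested leukocyte adhesion and chemokine genes (16 listed) 8 were higher and 3 lower (median 1.47). Selp (P-selectin) was at 44.3, 49.3 and 577 CPM against 0.531, 2.02 and 1.5 CPM (log2 difference 7.43, SE 0.59, edgeR adjusted p 2.65e-07), but 1 posterior member held 54.8% of its UMIs. Icam2 had a log2 difference of 5.76, Icam1 of 1.87 and the chemokine Cxcl12 (166, 895 and 577 CPM) of 2.54. Cxcl2 (-4.19) and Cxcl10 (-2.89) were lower.

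Antigen presentation genes split by class against the other barcodes, which include macrophages. The class II genes H2-Aa (0, 16.4 and 98.2 CPM against 368, 270.5 and 1005 CPM; log2 difference -4.05), H2-Ab1, H2-Eb1 (-4.02) and Cd74 were lower, as was Irf1. Class I genes H2-D1 (1651, 1601 and 1578 CPM against 744, 715 and 1151 CPM) and H2-K1 were not called (adjusted p 0.0922 and 0.319). H2-T23 was higher (0.0337), a call lost in 7 of 11 alternatives. Against mural barcodes B2m, H2-D1, H2-K1 and H2-T23 were higher and 0 of 12 tested genes of the list lower. Against fibroblast barcodes H2-D1 and H2-T23 were higher and 0 of 15 lower. Counts of H2 genes are uncertain because the copies are alike. Gbp4, an interferon-induced GTPase, was higher (2.91). All 20 listed genes were tested, 5 higher and 5 lower (median 0.40), and 3, 2 and 3 were higher without the anterior, the mixed and the posterior library. Of basement membrane genes (13 of 14 tested) 4 were higher and 1 lower (median -0.37). Col4a1 was at 565, 821 and 1086 CPM against 151, 232 and 170.5 CPM (log2 difference 2.00, SE 0.28, edgeR adjusted p 8.31e-05) and Col4a2 had 2.06, while the laminin Lamb2 (-0.98, 0.091) was not called. The 1 lower gene was Sparc (-0.94, 0.0452), whose call was lost without the mixed (0.372) or the posterior library (0.223; 0.00019 to 0.372 over 11 alternatives).

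**Figure D3:**
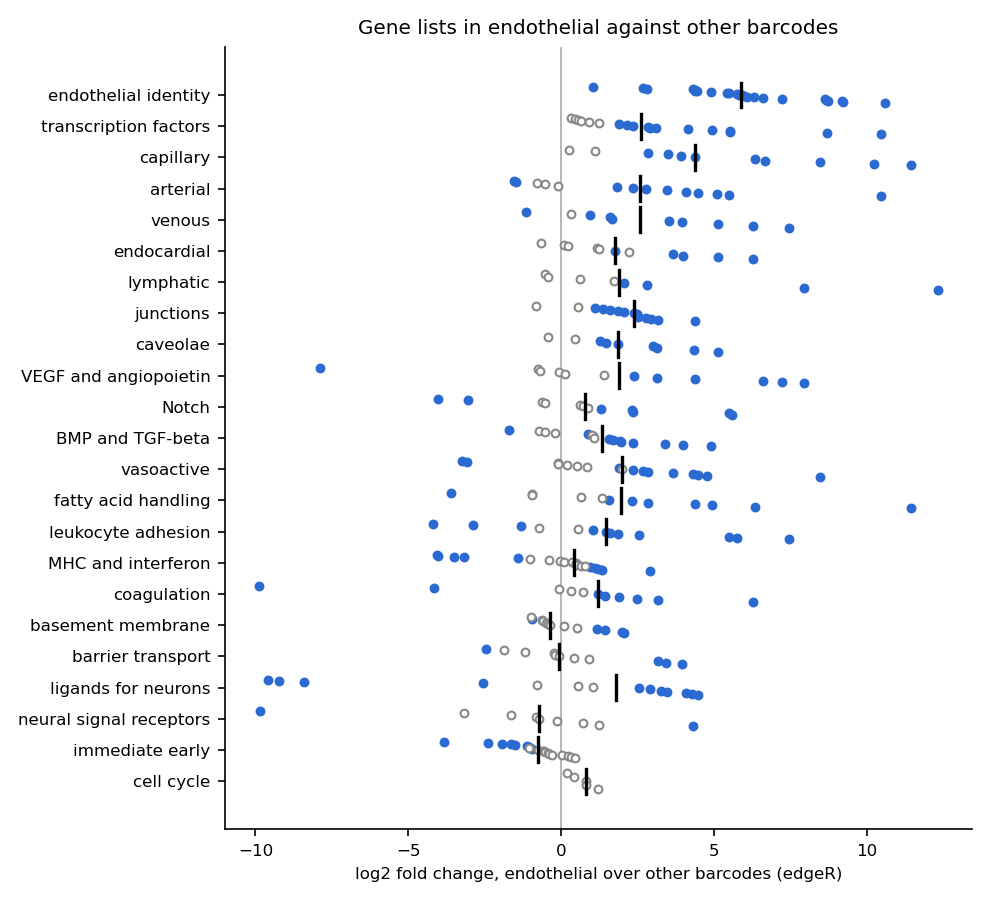
Log2 fold changes of endothelial members over other barcodes (x axis) for the tested genes of each list (y axis), 1 point per gene, filled where the edgeR adjusted p is under 0.05, with a bar at the list's median. The identity list (median 5.87) lies wholly to the right of 0, and the immediate early list (median -0.76) mostly to the left. Points beyond -7 are genes with 0 UMIs in the members, whose position depends on the prior count.

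Genes of the barrier of brain-type vessels had the median of all genes, while single ones were higher and others absent. Mfsd2a, the lipid transporter of the blood-brain barrier, had 0 UMIs in the members, and so had Slco1c1, Slc7a5, Foxq1 and Lrp8. Slc2a1, the glucose transporter GLUT1, was counted in 4 members (0, 8.21 and 18.4 CPM against 23.4, 18.8 and 22.6 CPM; adjusted p 0.392). Of 11 tested genes (17 listed) 3 were higher, the efflux pumps Abcb1a (3.43) and Abcg2 (3.17) and Ly6c1 (3.93, from a family of similar genes), and 1 was lower, Itm2a (-2.45, adjusted p 0.0524 without the mixed library; 0.000365 to 0.0524 over 10 alternatives). The median was -0.09, as over all genes, of which 6.21% were higher and 8.88% lower. At these depths a gene with 0 UMIs could still lie at up to 8.002 CPM, the floor of 3 counts over all members.

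Ligands that act on neurons and the receptors that vessels could use to read neural signals are of interest in a ganglion. Of 14 tested ligands (22 listed) 7 were higher and 4 lower (median 1.80). Kitl, the ligand of Kit, was at 277, 353 and 276 CPM against 38.2, 34.3 and 18.5 CPM (log2 difference 3.25, SE 0.28, edgeR adjusted p 6.69e-07). The semaphorin Sema3a was at 55.4, 24.6 and 61.4 CPM against 5.31, 0 and 1.94 CPM (log2 difference 4.29), Sema3f had 2.90 and Efnb2, an ephrin of arteries, 4.09. Sema3c had 0 UMIs in the members, at least 8.15-fold lower, Slit3 at least 6.72-fold lower and the GDNF-family ligand Nrtn at least 3.19-fold lower, whose call was lost without the anterior library (0.0567; 0.000197 to 0.0588 over 10 alternatives). Gdnf was counted in 2 members and Bdnf in none.

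Of 33 listed receptors for neural signals 9 passed the filter on low counts, and 19 had 0 UMIs in the members, among them the NPY receptors Npy2r and Npy5r, the muscarinic Chrm4 and Chrm5 and the adrenergic Adra1a, Adra1b, Adra1d, Adra2a, Adra2b and Adrb3. Calcrl, the receptor subunit for CGRP and adrenomedullin, was the 1 higher gene (133, 271 and 159.6 CPM against 14.9, 6.73 and 5.38 CPM; log2 difference 4.31, SE 0.41, edgeR adjusted p 1.7e-06). Its partner Ramp2, which makes it an adrenomedullin receptor, was at 842, 821 and 749 CPM against 114, 144 and 89.9 CPM, and Ramp1, which makes it a CGRP receptor, had 0 UMIs against 624, at least 9.72-fold lower. The adenosine receptor Adora2a (11.1, 82.1 and 30.7 CPM) was not called (adjusted p 0.155), nor was Npy1r, counted in 1 member (0.0505). Chrm3 was counted in 3 members.

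Of 21 immediate early and dissociation response genes, all tested, 9 were lower than in the other barcodes, 0 were higher and 12 were not called (median -0.76). Without the library term 2 were lower. Egr2 (-3.85, adjusted p 0.000412) and Nr4a1 (55.4, 90.3 and 73.7 CPM against 197, 446 and 403 CPM; -2.39, 4.62e-05) were lowest. Fos was at 233, 2931 and 1154 CPM against 2486, 4307 and 3891 CPM (log2 difference -1.95, SE 0.45, edgeR adjusted p 0.00625), and its adjusted p was 0.122 without the mixed library (3.23e-10 to 0.259 over 11 alternatives). Without that library 3 genes were lower and 1 higher, without the anterior 14 and without the posterior 6. Fosl2 and Hspb1 were not called (adjusted p 0.519 and 0.747). Proliferation genes were few: 5 of 16 passed the filter and 0 were called by edgeR or DESeq2, and 0 of those 5 had an unadjusted edgeR p under 0.05. Mki67 had 7 UMIs in 2 members, 6 of them in 1 mixed member.

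Markers of most other cell types were lower in the members, and what remained was uneven. Fibroblast markers were all lower (11 of 11, median -4.16), with summed levels of 2272, 476 and 387 CPM against 13770, 15620 and 15110. Col1a1 had 1 UMI against 6749 (log2 difference -8.28). Dcn, a proteoglycan of fibroblasts, was at 1928, 238 and 0 CPM in 12, 7 and 0 members against 4303, 2912 and 2911 CPM (log2 difference -3.69, SE 0.82, edgeR adjusted p 0.0046), a call lost with DESeq2 (0.203) and without the library block (0.248; 1.55e-15 to 0.248 over 11 alternatives). Glial markers were all lower (11 of 11, median -4.94, or -3.98 with genes at 0 set to their bound), with 0 UMIs of Cdh19 and Foxd3. Macrophage markers were lower in 7 of 9 tested (10 listed), with C1qa, Tyrobp and Fcer1g at 0, lymphocyte markers in 5 of 5 (10 listed), cardiomyocyte markers in 10 of 10 and epithelial or mesothelial markers in 5 of 6 (10 listed). Markers at 0 UMIs in the members passed the filter through the other barcodes alone and could only come out lower. Among them were Cd3g, Cd3d and Ptprc of the lymphocyte list and Msln and Upk3b of the epithelial list. The filter thus favours these numbers. Without the posterior library 1 lymphocyte marker was lower and without the anterior 8.

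Neuron markers did not follow this pattern. Their summed level was 798, 2102 and 1897 CPM in the members and 729, 1655 and 1566 CPM in the others, and of 13 tested (15 listed) 1 was higher and 0 lower. Over all genes 6.21% were higher and 8.88% lower, so 1 of 13 is near the share of all genes. The list includes Snap25, Prph and Stmn2, which the neuron limit capped in members and others alike. The comparison was therefore partly set by the rule. Without the 5 odd members 0 were higher and 3 lower. The higher gene was Th (55.4, 172 and 117 CPM against 42.5, 69.3 and 35.7 CPM; 1.13, adjusted p 0.0245), and without the 5 odd members it was lower (-4.10, adjusted p 0.00261). It was not called without the anterior (0.18) or the posterior library (0.243; 0.00261 to 0.243 over 10 alternatives). Npy, the transmitter neuropeptide Y, was at 99.8, 197 and 178 CPM against 146, 209 and 179 CPM (adjusted p 0.569). Of 11 tested mural markers (smooth muscle cells and pericytes, 13 listed) 1 was higher and 5 were lower, 0 and 5 without the 5 odd members, and 0 and 7 without members of another gate. Summed levels were 1474, 2365 and 1909 CPM against 13150, 4894 and 2877 CPM. The higher gene, Rgs5, was at 1175, 1848 and 1289 CPM in 2, 6 and 5 members against 859, 524 and 474 CPM (1.10, 0.0257), and without the 5 it was at -0.998 and not called (0.084). It was not called either without the anterior (0.0661) or the posterior library (0.157; 0.0148 to 0.161 over 11 alternatives). Acta2 (-6.57), Tagln (-4.68) and Myh11 (-4.48) were lower. Haemoglobin genes were not called, although the list they stand in had 4 genes higher without the posterior library and 1 lower without the anterior, and Hbb-bs, at 0, 13470 and 12.3 CPM, had 99.8% of its member UMIs in 1 anterior barcode. GFP, the reporter of the sort, had 0 UMIs in the 22 mixed members, which allows up to 33.2 CPM, against 1.59 CPM in the other mixed barcodes and 2.76 CPM in those above the neuron limit. Actl6b likewise had 0, against 7.43 and 70.4 CPM.

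The genes lowest in the members by the naming rule belonged to stromal and glial cells. With 0 UMIs in the members, the transporter Abca8a was at least 49.4-fold lower, the matrix proteoglycan Ogn at least 45.4-fold, the lysophosphatidic acid receptor Lpar1 at least 23.9-fold, the glial ectonucleotidase Entpd2 at least 16.0-fold, the receptor kinase Axl at least 12.2-fold and the laminin Lama2 at least 10.7-fold.

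The members were also set against single classes of the vessel wall. Against 118 mural barcodes, 412 of 2558 tested genes were higher (16.1%) and 441 lower (17.2%), with a median of 0.01. Of the 24 identity genes 19 passed the filter on low counts, 6 of them with 0 UMIs in the mural barcodes and so through the members alone. All 19 were higher, which the filter favours, so the number supports nothing by itself. The largest differences were of Ctla2a (672 UMIs against 0, at least 385-fold), Ramp2 (298, at least 171-fold), Gpihbp1 (at least 140-fold), Ly6c1 (at least 120-fold) and Clec14a (at least 64.1-fold). Caveola genes, which smooth muscle also carries, had 4 of 9 higher and 2 lower, where against all other barcodes 7 were higher and 0 lower. MHC and interferon genes had 9 of 12 higher and 0 lower, where against all other barcodes 5 of 20 were higher and 5 lower.

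Against 395 fibroblast barcodes, 484 of 4565 tested genes were higher (10.6%) and 567 lower (12.4%), with a median of 0.00. Of the 24 identity genes 22 passed the filter, 6 with 0 UMIs in the fibroblast barcodes, and 21 were higher, with the same limit. Of 9 caveola genes 6 were higher and 0 lower. The largest differences were of Vwf (222 UMIs against 0, at least 477-fold), Adgrl4 (at least 288-fold), Mmrn2 (at least 249.5-fold), Ctla2a (672 against 3, ratio 1445, 492 to 7025) and Gpihbp1 (244 against 1, ratio 1574, 280 to 6.24e+04). Basement membrane genes had 3 of 13 higher and 5 lower, where against all other barcodes 4 were higher and 1 lower, and immediate early genes 0 of 20 higher and 13 lower. The other barcodes of the first comparison include these mural and fibroblast barcodes, so the comparisons share their member libraries and much of their reference.

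Lists of vessel bed markers did not separate the members from other barcodes equally well. A UMI of at least 2 genes of the capillary list was found in 62 (12, 23 and 27), of the arterial list in 57, of the venous list in 53, of the endocardial list in 42 (14, 16 and 12) and of the lymphatic list in 10 (3, 1 and 6). With each member thinned to 1000 UMIs the numbers were 45, 38, 35, 25 and 7. In the mixed, anterior and posterior library the capillary list was met by 54.5%, 74.2% and 93.1% of the members and by 33.2%, 28.8% and 26.2% of the other barcodes, and the endocardial list by 63.6%, 51.6% and 41.4% against 22.4%, 13.5% and 15.7%. The arterial list was met by 68.2%, 74.2% and 65.5% of the members but by 91.1%, 82.6% and 95.3% of fibroblast barcodes, and the venous list by 72.7%, 64.5% and 58.6% against 96.4%, 95.7% and 98.4%. The lymphatic list was met by 13.6%, 3.23% and 20.7% of the members and by 19.7%, 16.0% and 24.4% of the other barcodes. In the mixed library the capillary list was met by 58.7% of mural and 57.0% of glial barcodes as well. The arterial, venous and lymphatic numbers, and the capillary number of the mixed library, therefore do not show vessel beds. The endocardial list was met by 41.1% of mixed fibroblast barcodes and shares Vwf and Plvap with the venous list. Its number does not show endocardium by itself either. A member could meet several lists: of those with at least 3 genes, 26 of 49 capillary members were also among the 46 arterial ones. Of the 24 endocardial members (13, 7 and 4), 23 were among the 46 venous ones. These lists overlap in function, and the counts depend on depth. Edges between types were therefore looked at through single genes with few members in common, chosen after the values had been seen and given without a test.

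Members with a Gpihbp1 UMI and no Npr3 or Mmrn1 UMI formed the largest set, 38 of 82 (4, 18 and 16). Of these 38, all had a Fabp4 UMI (18490 CPM summed over the set), 36 had Cd36 (2091 CPM), 35 Kdr (947 CPM), 31 the water channel Aqp1 (1648 CPM), 29 Cxcl12 (1049 CPM), 27 Rgcc (1342 CPM) and 23 Sox17 (313 CPM). Vwf was at 143 CPM, Cytl1 at 0 and Dcn at 0. Over all members Gpihbp1 and the fatty acid genes lay largely in the same barcodes. Of 57 members with Fabp4 and 46 with Gpihbp1, 42 had both and 15 had Fabp4 without Gpihbp1. Of the 45 with Cd36, 44 had Fabp4.

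Npr3, the natriuretic peptide clearance receptor and an endocardial marker (chromosome 15, 11839896 to 11907287), was in 17 members, 10 of 22 in the mixed library (45.5%, 24.4 to 67.8), 7 of 31 in the anterior (22.6%, 9.59 to 41.1) and 0 of 29 in the posterior library, which by the floor of 3 counts allows members with an Npr3 UMI up to 10.3% (exact upper limit 11.9%) and does not limit members that express it. Summed levels were 488, 337 and 0 CPM (log2 difference 3.65, SE 0.62, edgeR adjusted p 0.000559), and DESeq2 did not call it (0.431; 1.54e-27 to 0.431 over 9 alternatives). The 17 members had Plvap in 14 (1215 CPM), Vwf in 15 (998 CPM), Cytl1 in 13 (961 CPM), Tmem108 in 11 (345 CPM), Emcn in all 17 (1651 CPM) and Cldn5 in 1 (18.1 CPM, against 1219 CPM in the Gpihbp1 set). Fabp5, a fatty acid carrier, was in all 17 at 4571 CPM against 1376 CPM in the Gpihbp1 set, and Apoe at 10650 against 681 CPM. Mgp was in 16 at 3718 CPM. Dcn was in 14 of the 17 with 52 UMIs and in 5 of the members without any of these markers with 151, and had 0 UMIs in the Gpihbp1, Mmrn1 and Chgb sets.

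A set of 8 members (2, 1 and 5) carried Mmrn1, a lymphatic matrix protein (chromosome 6, 60924976 to 60989378). It had 159 UMIs against 0 in the 1476 other barcodes, at least 1134-fold higher. Mmrn1 defined the set, so its 0 in the other 74 members was fixed. These 8 were also the members with at least 3 genes of the lymphatic list. Reln, Pdpn, Maf, Sema3d, Prox1, Flt4, Lyve1 and Ccl21a belong to that list, so their counts describe the set and do not test it. The same 8 held 46 UMIs of Reln, 19 of Pdpn, 53 of Maf and 21 of Sema3d, with 0 of each in the other 74. Prox1, the factor that specifies lymphatic endothelium, had 22 UMIs against 6, the receptor Flt4 50 against 14, Lyve1 96 against 29 and Fgl2 98 against 12. Ccl21a, from a multi-copy gene family and so uncertain, had 712 UMIs in 7 of the 8 and 0 in the 74. Vwf and Npr3 were at 0 in the 8, and Flt1 was at 0 CPM. Of the lymphatic list 8 of 10 genes were tested and 4 were higher (median 1.89). Pdpn and Maf were not called (adjusted p 0.653 and 0.663), with mean levels of 137 CPM of Pdpn in glial and 492 CPM of Maf in macrophage barcodes.

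The remaining 15 members (5, 3 and 7) had none of Gpihbp1, Npr3, Mmrn1 or much Chgb. Vwf was at 1862 CPM in 9 of them, Selp at 1250 CPM in 6, Lrg1, a venous marker, at 765 CPM in 8 and Gja4, an arterial gap junction protein, at 204 CPM in 7. Of the 98 Selp UMIs, 1 posterior member held 57 and another 32, and these 2 held 16 and 18 of the 60 Lrg1 UMIs. Cytl1 of the endocardial list was at 1212 CPM in 7 of the 15, 3 of them posterior. Mgp was at 2946 CPM in 13 and Apoe at 3915 CPM in 11. These genes were thus not confined to the Npr3 set. Over all members the arterial list had 9 of 14 tested higher (15 listed) and 2 lower, Mgp (-1.49, adjusted p 0.133 without the posterior library; 9e-09 to 0.133 over 11 alternatives) and Eln (-1.55), matrix genes also made by smooth muscle (median 2.56). Gja5, connexin 40, was counted in 1 member of each library and not tested. The venous list had 8 of 10 tested higher (13 listed) and 1 lower, Bgn (-1.16, adjusted p 0.131 without the mixed library; 0.000465 to 0.131 over 11 alternatives), with a median of 2.59. The endocardial list had 5 of 11 tested higher (12 listed) and 0 lower (median 1.77), and 3 higher without the mixed library. Among these Gata4 and Cdh11 were not called (adjusted p 0.979 and 0.502).

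**Figure D4:**
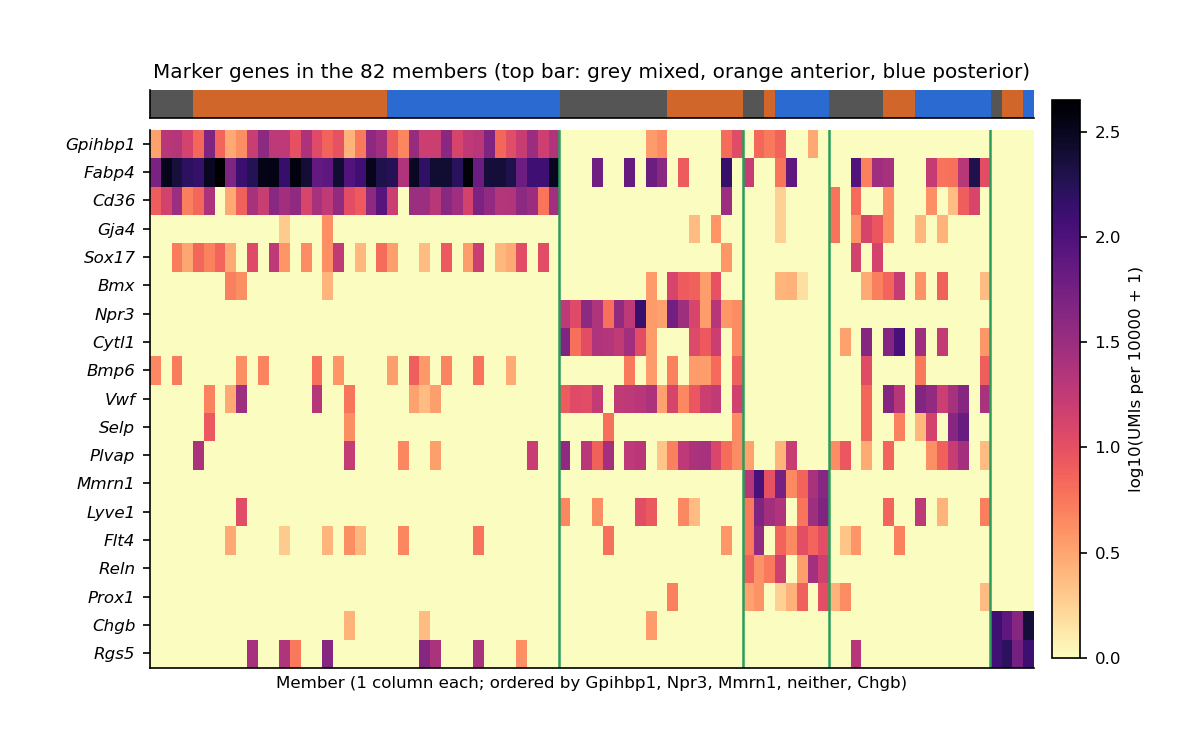
UMIs per 10000, as log10 with 1 added (colour), of selected genes (rows) in each of the 82 endothelial members (columns), ordered by marker set and then library, which the top bar gives. The 38 Gpihbp1 members carry Fabp4 and Cd36, most of the 17 Npr3 members Vwf and Cytl1, most of the 8 Mmrn1 members Reln and Lyve1, and the 4 Chgb members Rgs5.

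Anterior and posterior members could be compared only as single libraries, so the ratios have exact intervals for counting error and no test of region. Among 776 genes with enough counts, 60 differed by more than 2-fold (7.73%), 24 higher in anterior and 36 in posterior members, and the median log2 ratio was -0.08. Apoe, a lipid carrier, had 4229 CPM in anterior members and 976 in posterior ones, a ratio of 4.33 (3.62 to 5.21), with 23800 and 14290 CPM in the other barcodes. Fabp5 was at 2061 and 589 CPM (3.50, 2.75 to 4.47). Within the Gpihbp1 set the ratio was 0.99 (0.733 to 1.34) for Fabp5 and 2.27 (1.43 to 3.68) for Apoe, and the Npr3 members, with 252 Fabp5 and 587 Apoe UMIs beside 202 and 100 in the Gpihbp1 set, numbered 7 anterior and 0 posterior. Gadd45b, a stress response gene, was at 271 and 49.1 CPM (5.52, 2.5 to 13.8) and the histone gene Hist1h2bc at 296 and 85.9 CPM (3.44, 1.81 to 6.90), and within the Gpihbp1 set their ratios were 5.14 (1.97 to 17.0) and 10.2 (2.52 to 89.3).

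Cartpt, a neuropeptide precursor, was at 460 and 55.2 CPM (8.32, 4.09 to 19.1), and Pcsk1n, a granule protein of neuroendocrine cells, at 583 and 160 CPM (3.65, 2.30 to 5.97). Without the Chgb-rich and haemoglobin-rich members their log2 ratios went from 2.85 to 0.53 and from 1.81 to 0.25.

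Higher in the posterior members were Fgl2, a fibrinogen-like protein (posterior to anterior ratio 15.9, 5.98 to 59.6), the matricellular Thbs1 (9.72, 3.09 to 49.2), Fbln5 (5.38, 2.11 to 17.6), Bcr (4.93, 1.91 to 16.2), Eln (4.11, 1.70 to 12.0) and the glucosylceramide synthase Ugcg (3.95, 1.74 to 10.5). For Fgl2 50 of 85 posterior UMIs came from 1 member. It was in all 8 Mmrn1 members (1679 CPM), and Bcr (428 CPM) was in 7 of them. Of these 8, 1 was anterior and 5 were posterior. For Fbln5 the 5 posterior Mmrn1 members held 14 UMIs (290 CPM) and the 7 posterior members with none of the markers 22 (531 CPM), and for Eln they held 12 (248 CPM) and 21 (507 CPM). Thbs1 had a ratio of 5.26 (1.47 to 28.6) within the Gpihbp1 set. There 1 posterior member held 11 of the 14 posterior UMIs, and 1 anterior member held all 3 anterior UMIs. Whether the makeup of the sets accounts for the library difference was not tested.

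**Figure D5:**
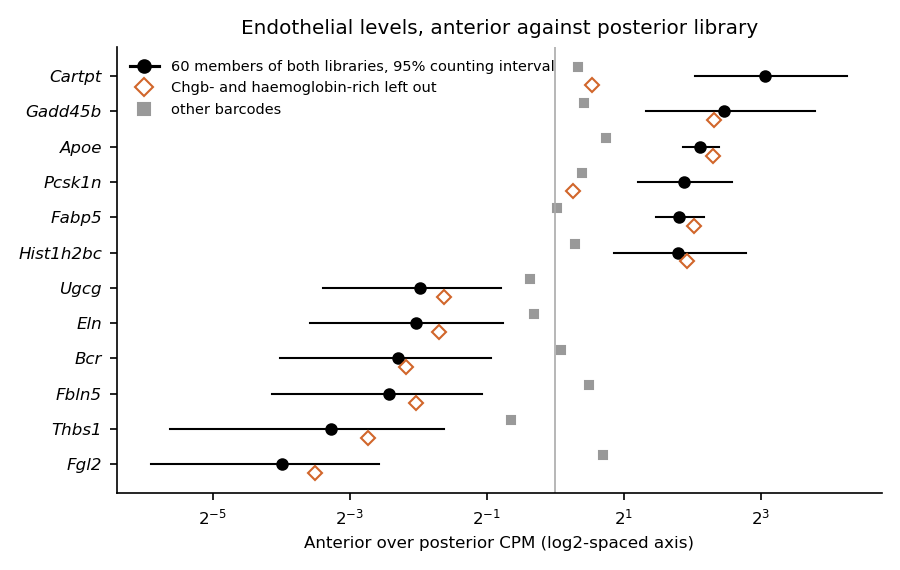
Anterior over posterior CPM (x axis, log2-spaced) of the 12 genes named by rule, in all members of both libraries with 95% counting intervals (black), without the Chgb-rich and haemoglobin-rich members (open diamonds) and in the other barcodes (grey). Cartpt (8.32) and Pcsk1n (3.65) move close to equality without those members, and the other genes stay on their side.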

How the data were processed

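Fluorescent atrial cells were profiled in 3 libraries, 1 per group of the labels (mixed, anterior, posterior). The authors deposited raw UMI counts per gene and barcode, written by Cell Ranger 3.1.0 (mixed) and 6.1.2 (anterior and posterior) per the file headers. The submitters' processing notes name Cell Ranger 7.1.0, Seurat 4.4.2 and mm10. The mixed file lists 31064 features and the others 32285, and 30406 were joined by Ensembl identifier. Gene coordinates come from GENCODE vM21 (GRCm38) and are 1-based.

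Library totals were 119825307, 55329380 and 86391988 UMIs, and the members held 90307, 122295 and 163492. Mural, fibroblast, glial and macrophage barcodes needed at least 3 of 7 gate genes of their own and more than of any other gate. UMI counts were summed per library and class and tested in edgeR 4.0.16 (R 4.3.3) by the quasi-likelihood test, with TMM scaling, its default filter on low counts, a library term and Benjamini-Hochberg adjustment at a threshold of 0.05. Which library a sum came from pairs the sums, and no source says whether libraries share animals, so p-values measure the spread between these libraries. The gate genes stayed in library sizes and out of tests. DESeq2 1.42.0 was an alternative. The fitting script was tested on simulated data with 100 genes changed 2-fold and 100 changed 4-fold. It called 20 and 88 of these against other barcodes, 27 and 78 against mural and 41 and 86 against fibroblast barcodes. A gene that was not called can therefore still differ by 2-fold. Shares have exact Clopper-Pearson and ratios exact conditional Poisson 95% intervals, which cover counting error only. A group with 0 UMIs was given a floor of 3 counts over the group. No doublet caller was run. Alternatives were other gates, thinning to 1000 UMIs, no filter, DESeq2 and its size factors, no library term, leaving out each library, and leaving out members of a further gate.

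The named genes were the gate genes, the 15 highest and the 8 lowest called genes with at least 50 CPM and a UMI in 25% of the higher class, the 2 highest and 2 lowest tested genes of each list, 12 fixed genes, the 5 highest against mural and against fibroblast barcodes, and the 6 highest and 6 lowest anterior to posterior ratios. Some genes that these rules name are not reported here. Other list genes were chosen for naming after their values had been seen. The members and lists were chosen with earlier results of these data known.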

Additional observations from a re-analysis of the deposited data

Results flagged for a closer look

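Gene differences between the members and the other barcodes that pointed in opposite ways in the anterior and the posterior library were singled out, and none of these differences between libraries was tested. Fbln5 was at 0.221 times the level of the other barcodes in the anterior members (41.1 against 186 CPM) and at 1.72 times in the posterior. Reln, carried by the Mmrn1 members, was at 0.172 times in the anterior and 11.95 times in the posterior, and Maf at 0 and 2.31 times. Jund was at 1.53 times in the anterior and 0.677 times in the posterior. Cartpt was at 3.12 and 0.481 times, but 48 of its 56 anterior UMIs lay in the Chgb-rich and haemoglobin-rich members, and without these it was at 0.552 and 0.464 times, lower in both libraries.

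Haemoglobin genes were at 25.9 (Hba-a1), 25.1 (Hba-a2), 25.9 (Hbb-bs) and 17.1 times (Hbb-bt) the level of the other barcodes in the anterior members and at 0.0190, 0, 0.00943 and 0 times in the posterior. A single anterior member held 99.8% of the Hbb-bs UMIs. Without the odd members they were at 0.102, 0, 0.0195 and 0 times in the anterior library, also lower in both.

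Outside the members, 29 barcodes (8, 13 and 8) had at least 3 gate genes but lay above the neuron limit, with median depths of 43008.5, 2681 and 2681.5 UMIs. They entered no comparison.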

How the results depend on the processing

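With the filter, scaling, tool and gate varied, the number of genes called against the other barcodes stayed within 1.5 times its main value of 1363 except after thinning to 1000 UMIs (588). Leaving out 1 library gave 1081 to 1241. Against mural barcodes (853) no filter on low counts gave 1499, DESeq2 525 and thinning 184, and leaving out 1 library 632 to 781. Against fibroblast barcodes (1051) they gave 1669, 678 and 270, and leaving out 1 library 897 to 1319. Without the replicate block, that is without the library term that pairs the sums, 1058, 755 and 889 genes were called.

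The endothelial share became 8.91% in the mixed and 5.99% in the posterior library with at least 2 gate genes, and 4.64% in the anterior and 2.59% in the posterior after thinning. Members with at least 2 genes of a list, thinned, were 45 (capillary), 38 (arterial), 35 (venous) and 25 (endocardial), and members with at least 3 genes were 49, 46, 46 and 24.

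Thinning also lowered the numbers of higher genes to 6 for transcription factors, 2 for arterial, 8 for junction, 6 for BMP and TGF-beta, 5 for vasoactive, 5 for leukocyte, 3 for ligand, 2 for coagulation, 1 for Notch and 1 for lymphatic genes. Fewer genes per barcode are left by its construction. DESeq2 gave 3 higher endocardial and 3 higher MHC or interferon genes, and without the library term 2 immediate early genes were lower.

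Of the single gene values, 3266 kept their direction and side of the threshold, 167 lost a call, 55 gained one, 9 changed sign and 3 ratios moved. Sign changes were those of Th (-4.07 with at least 4 gate genes, -4.10 without the Chgb-rich and haemoglobin-rich members), Rgs5 (-0.982 and -0.998), Adm (-2.32 and -2.35), Hbb-bs (-6.48 without those members, and from -6.90 to 4.225 without 1 library) and Notch3 (-8.00 without members of another gate). For Th, Rgs5, Adm and Hbb-bs the members left out held these UMIs; for Notch3 the cause was not tested. Cxcl10 (highest adjusted p 0.118), Irf1 (0.311) and Eln (0.0829) were also not called without the library term.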
